A study of Mus musculus with 4 samples.

Results

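The prolactin (Prl) and pregnancy-specific glycoprotein (Psg) genes of the mouse were examined for peaks of H3K9me3, a histone mark of silenced chromatin, in cultured muscle stem cells with and without the deletion of Setdb1. Members were the protein-coding genes named Prl, or Prl followed by a digit, a letter and digits, or Psg followed by digits. There were 39 of 21887 protein-coding genes, namely 26 Prl genes on chromosome 13 and 13 Psg genes on chromosome 7. Each gene was measured as the percent of its window, the gene plus 5 kb on both sides, that lay under deposited peaks.

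Chromatin immunoprecipitation and sequencing was done on muscle stem cells taken by magnetic sorting and grown in vitro. The 4-hydroxytamoxifen library came from cells treated for 72 h with 4-hydroxytamoxifen, which activates an inducible Cre recombinase driven by the Pax7 locus and so deletes Setdb1, an H3K9 methyltransferase gene. The ethanol library came from cells given ethanol for 72 h and is the control. Both carried loxP-flanked Setdb1 on both alleles and the Cre. The genotype labels read Setdb1lox/lox;Pax7GakaCreERT3 for the 4-hydroxytamoxifen library and Setdb1lox/lox;Pax7GakaCreERT2 for the ethanol library and differ in the last digit alone. Neither age nor the number of animals is stated in the labels. With a single H3K9me3 library for each condition, differences could not be set against replicate spread and no p-value is given. Each condition also had 1 input library, not analysed here, and peak lists of this mark do not check the deletion itself.

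Prolactin is a pituitary hormone that drives lactation. In rodents its gene was copied many times in tandem, and most of the copies are transcribed in the placenta or the decidua, where placental lactogens act through the prolactin receptor and proliferins act on blood vessel growth. Pregnancy-specific glycoproteins are secreted by trophoblast, modulate immune cells and vessels, and belong to the carcinoembryonic antigen family together with the Ceacam genes. Neither family is known for a role in muscle stem cells. H3K9me3 often covers tandem gene arrays in cell types that do not use them, and Setdb1 is 1 of several enzymes that can place it.

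On chromosomes 1 to 19, X and Y there were 113503 peaks in the 4-hydroxytamoxifen list and 105709 in the ethanol list. They covered 134 Mb and 133 Mb, at a median width of 854 bp and 904 bp. Peaks with an authors' −log10 q of 2 or more made up 11.5% of the 4-hydroxytamoxifen list and 18.8% of the ethanol list. Read depth is unknown, so depth and a difference in the mark cannot be told apart, and in a bulk culture neither can a mark in fewer cells and a weaker mark in all of them. All 9 muscle stem cell marker genes looked up, among them Pax7, Myf5 and Myod1, were free of peaks in both lists, which does not measure their expression.

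Most Prl genes had no H3K9me3 peak, while most Psg genes had some. Of the 26 Prl genes, 17 lacked a peak in both lists, a share close to the 64.6% of all protein-coding genes with none. A peak was present for 7 Prl genes in the 4-hydroxytamoxifen list and 9 in the ethanol list, against 30.1% and 29% of all protein-coding genes. Of the 13 Psg genes, 11 had a peak in the 4-hydroxytamoxifen list and the same number did in the ethanol list, and Psg22 and Psg19 had none in either.

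Window coverage of the Prl genes averaged 2.57% in the 4-hydroxytamoxifen list and 3.02% in the ethanol list, a difference of -0.45 percentage points. The median was 0% in both. All protein-coding genes averaged 2.89% in the 4-hydroxytamoxifen list and 2.89% in the ethanol list, and those of chromosome 13 averaged 4.70% and 3.76%. In the 4-hydroxytamoxifen list 2 Prl genes were higher, 7 lower and 17 equal, whereas the genes of chromosome 13 as a whole were covered more there.

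The Psg genes averaged 8.96% in the 4-hydroxytamoxifen list and 6.39% in the ethanol list, a difference of 2.56 points. Their medians were 6.78% and 4.46%, and 7 were higher, 4 lower and 2 equal in the 4-hydroxytamoxifen list. The median difference was 0.479 points. Protein-coding genes of chromosome 7 averaged 5.93% and 5.07%. Without Psg18, the member with the largest difference in this window, the Psg difference was 1.42 points, so a few members carried much of the mean.

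A difference of at least 10 percentage points was taken as a call. Such calls were made for 2 of 13 Psg genes higher in the 4-hydroxytamoxifen list, against 2.38% of all protein-coding genes. They were made for 0 of 13 Psg genes lower, against 2.52% of all protein-coding genes. Of the 2030 protein-coding genes of chromosome 7, 147 were higher by that much and 81 lower, a larger share than over all chromosomes. No Prl gene differed by that much in either direction. The percentages of members differ from these backgrounds by very few genes.

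**Figure D1:**
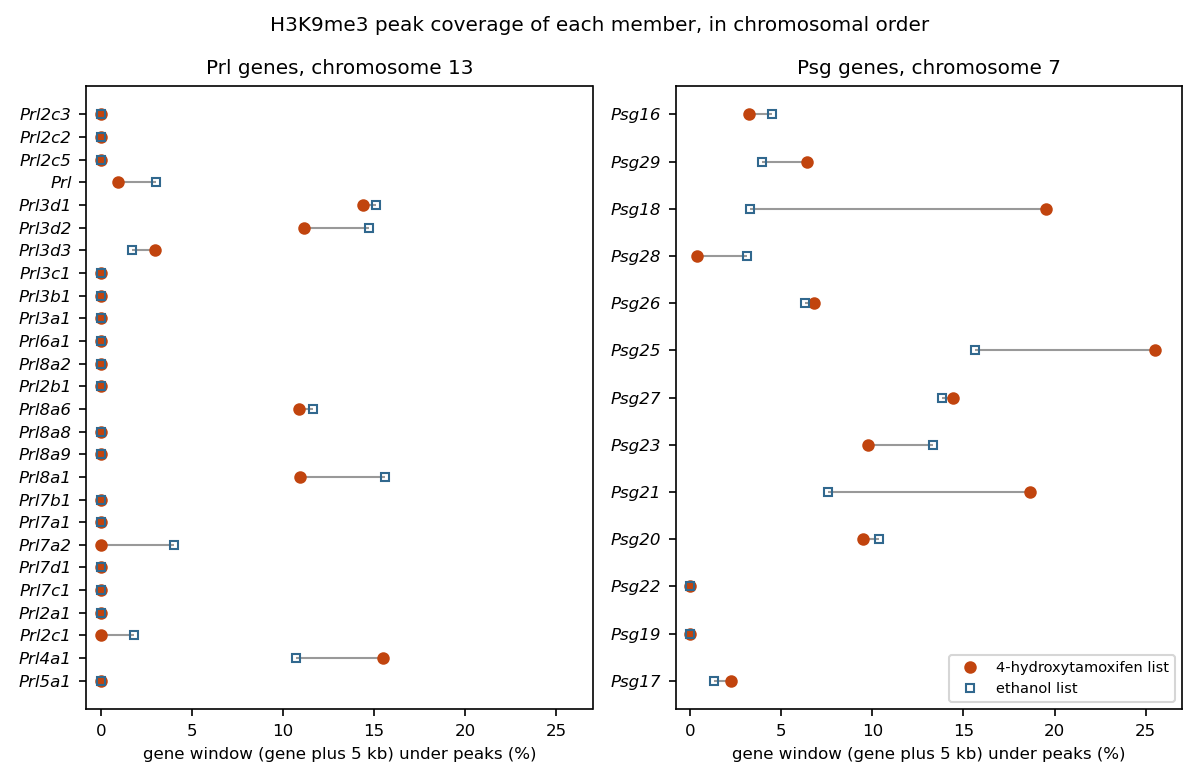
Percent of each gene window (gene plus 5 kb on both sides) under H3K9me3 peaks, with filled circles for the 4-hydroxytamoxifen list and open squares for the ethanol list, 1 library each, in chromosomal order. Of the Prl genes 17 sit at 0% in both lists, and Psg18 and Psg21 show the widest gaps, at 19.5% and 3.30%, and 18.7% and 7.56%.

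The placental lactogen I genes carried a peak at nearly the same place before their start. Prl3d1, Prl3d2 and Prl3d3 encode closely related copies of this hormone, which trophoblast giant cells secrete and which acts on the prolactin receptor. The 250 bases before their annotated starts are shown because a peak lies upstream of each and because the copies are alike there. They come from RefSeq (build GRCm38.p6, which shares its chromosome sequences with mm10) and read 5′ to 3′ up to the base before the start. Capitals mark matches to TGATAA, a form of the GATA factor motif that reads TTATCA on the other strand, and to TGANTCA, the AP-1 motif, searched on both strands. The windows are chr13:27093939-27094188 for Prl3d1, chr13:27121445-27121694 for Prl3d2 and chr13:27156544-27156793 for Prl3d3, all on the plus strand.
Prl3d1: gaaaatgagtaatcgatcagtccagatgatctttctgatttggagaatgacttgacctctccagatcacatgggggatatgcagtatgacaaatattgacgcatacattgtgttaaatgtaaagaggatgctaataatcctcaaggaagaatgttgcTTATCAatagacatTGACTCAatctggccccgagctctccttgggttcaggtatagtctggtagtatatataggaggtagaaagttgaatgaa
Prl3d2: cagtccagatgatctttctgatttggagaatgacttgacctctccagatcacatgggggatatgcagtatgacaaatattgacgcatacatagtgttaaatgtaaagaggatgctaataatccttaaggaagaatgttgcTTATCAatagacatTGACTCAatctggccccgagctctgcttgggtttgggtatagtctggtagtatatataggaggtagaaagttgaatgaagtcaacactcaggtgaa
Prl3d3: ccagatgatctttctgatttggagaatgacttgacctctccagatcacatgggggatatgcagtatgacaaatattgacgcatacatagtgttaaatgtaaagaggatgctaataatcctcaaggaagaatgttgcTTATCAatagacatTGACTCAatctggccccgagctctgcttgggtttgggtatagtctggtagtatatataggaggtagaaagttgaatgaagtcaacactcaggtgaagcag

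In a global alignment the upstream sequence of Prl3d2 was 96.5% identical to that of Prl3d3, and Prl3d1 was 85.4% identical to Prl3d2. The treatment of reads that match several copies is not given in the sources, so a peak near 1 copy may hold reads of another.

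Before Prl3d1 the 4-hydroxytamoxifen list had a peak at chr13:27090572-27092885, of 2314 bp and −log10 q 1.87, and the ethanol list a peak at chr13:27090526-27092950, of 2425 bp and −log10 q 2.92. The nearer edges lay 1.3 kb and 1.24 kb before the start, and all 2314 bp of the first peak lay within the second. Window coverage was 14.4% in the 4-hydroxytamoxifen list and 15.1% in the ethanol list. The lists hardly differed here, but at a −log10 q of 2 or more Prl3d1 differed by -15.1 points, since only the ethanol peak passed that threshold.

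Prl3d2 was covered at 11.2% in the 4-hydroxytamoxifen list and 14.7% in the ethanol list. Its single peak ended 1.45 kb and 1.28 kb before the start, and the peaks of both lists overlapped over 1772 bp. For Prl3d3 the coverage was 2.99% and 1.69%, with narrower peaks of 473 bp and 267 bp that ended 1.17 kb and 1.20 kb before the start. In none of these 3 genes did a peak enter the gene body or the 5 kb after it, in either list. Prl, the pituitary hormone gene next to them, was touched only in the flank after its end, at 0.919% and 3.05%.

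The 6 members that follow Prl3d3 along the chromosome lacked peaks in both lists. They were Prl3b1, which encodes placental lactogen II, Prl3c1, Prl3a1, Prl6a1, Prl2b1 and Prl8a2, which encodes a prolactin-related protein of the decidua. From Prl3b1 the nearest peak lay 38.1 kb away in the 4-hydroxytamoxifen list and 36.9 kb away in the ethanol list. Prl6a1 lay 24.5 kb from a peak in both lists and Prl8a2 11.4 kb and 11.7 kb. The longest stretch free of peaks in the main cluster was 130.7 kb in the 4-hydroxytamoxifen list and 96.5 kb in the ethanol list, and Prl7c1, Prl2a1 and Prl2c1 lay inside it in both.

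Prl8a6 was the only member whose annotated start region, from 250 bp before to 50 bp after the start, met a peak, and it did so in the ethanol list alone. Start regions were annotated for 22 Prl and 10 Psg genes. Those under a peak numbered 0 in the 4-hydroxytamoxifen list and 1 in the ethanol list, while 2.16% and 2.2% of 17492 protein-coding genes had a peak there. The ethanol peak lay at chr13:27438241-27439836 (−log10 q 2.1), and the peak of the 4-hydroxytamoxifen list at chr13:27439140-27440880 (1.4) began 0.452 kb before the start. The 2 peaks overlapped over 697 bp, and window coverage was 10.9% and 11.7%. The 250 bases before this start, at chr13:27438689-27438938 on the minus strand, are printed because the ethanol peak spans them all. None of the 4 motifs searched was found in them.
Prl8a6: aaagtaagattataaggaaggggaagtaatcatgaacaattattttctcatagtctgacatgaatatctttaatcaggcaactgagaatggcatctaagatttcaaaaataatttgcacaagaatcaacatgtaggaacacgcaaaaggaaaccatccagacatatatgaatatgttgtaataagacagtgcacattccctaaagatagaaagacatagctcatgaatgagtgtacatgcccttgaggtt

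Prl8a1 was covered at 11.0% in the 4-hydroxytamoxifen list and 15.6% in the ethanol list. A peak just before its start was found in both, at chr13:27582870-27584601 and chr13:27582735-27584501. Smaller peaks inside the gene differed between the lists, with 3.26% and 8.80% of the gene body covered. Its difference of -4.67 points became -20.3 with peaks joined within 5 kb, past the call threshold, and at a −log10 q of 2 or more Prl8a1 was at 0% in both lists. Prl4a1, whose product acts on uterine natural killer cells, was the Prl gene with the largest positive difference, at 15.5% and 10.7%, a difference of 4.77 points that is under the call threshold and turned to -5.02 points at a −log10 q of 2 or more. It had peaks before its start in both lists and a peak of 283 bp inside the gene in the 4-hydroxytamoxifen list alone. Prl7a2 (0% and 4.04%) and Prl2c1 (0% and 1.82%) had narrow peaks in the ethanol list alone. Prl7d1, which encodes the proliferin-related protein that restrains vessel growth, had no peak in either list.

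Proliferin genes stood free of peaks beside some of the widest domains of the 2 clusters. Prl2c3, Prl2c2 and Prl2c5, which encode proliferins, lie proximal to the main cluster, in a stretch of 411 kb from 12785816 to 13196930. All 3 windows were at 0% in both lists, and the nearest peaks to Prl2c2 lay 17.1 kb and 18.3 kb away. Yet peaks covered 18.6% of the whole stretch in the 4-hydroxytamoxifen list and 23.6% in the ethanol list. A peak of 25427 bp lay at chr13:12819060-12844486 in the 4-hydroxytamoxifen list, and 1 of 25348 bp at chr13:12818999-12844346 in the ethanol list. These 2 peaks held −log10 q values of 3.74 and 3.64, and no annotated gene of any kind lay under them. A domain of 10067 bp in the ethanol list, at chr13:13038329-13048395, met a peak of 3684 bp in the 4-hydroxytamoxifen list. The upstream sequences of Prl2c3 and Prl2c5 were 96.0% identical to each other, and 94.8% and 94.4% identical to that of Prl7d1. How reads that match several copies were placed is not given and was not analysed. A lack of peaks at such copies therefore cannot be told apart from reads left out there.

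**Figure D2:**
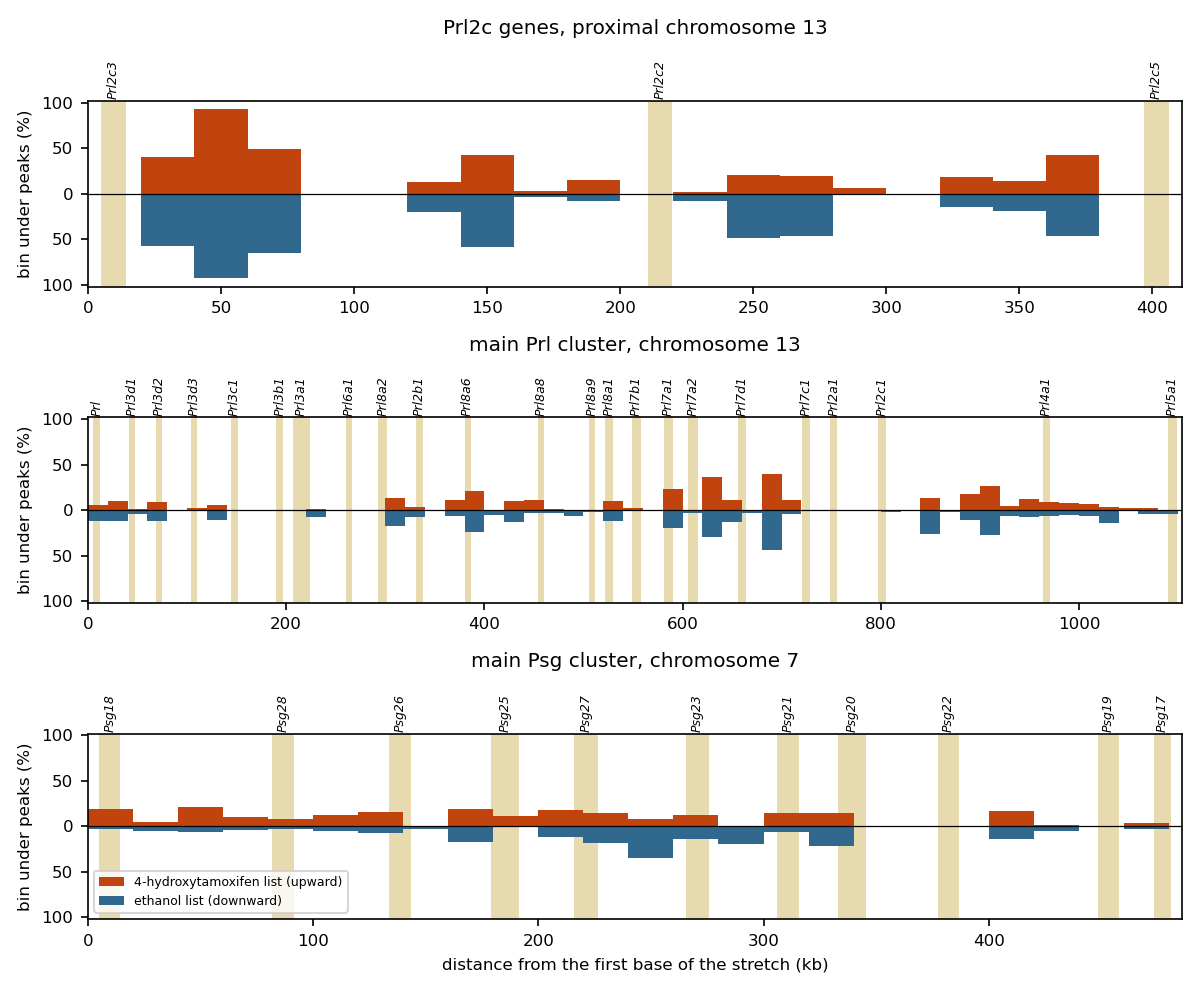
Percent of each 20 kb bin under peaks along the proliferin stretch, the main Prl cluster and the main Psg cluster, plotted against distance in kb from the first base, with the 4-hydroxytamoxifen list drawn upward and the ethanol list downward and member genes shaded. In the proliferin stretch peaks lie between the genes in both lists, up to 93.4% and 92.7% of a bin, with other bins at 0%, and Prl2c3, Prl2c2 and Prl2c5 have none within 5 kb.

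Across both Prl stretches the peaks lay mostly between the genes, with the same limit for copies that are alike. Member gene bodies were covered at 0.264% in the 4-hydroxytamoxifen list and 0.562% in the ethanol list, and the rest of the stretches at 11.1% and 13.5%. Whole stretches were covered at 9.62% and 11.7%, a difference of -2.08 points. Taken as 1 unbroken stretch, coverage was 5.08% and 4.80%, a difference of 0.287 points in the other direction. The main cluster, from 27052570 to 28156595, stood at 6.28% and 7.27%. Its most significant peaks were a pair at the same place 9.03 kb and 10.2 kb from Prl7c1, with −log10 q values of 4.27 and 3.58.

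The Psg stretches were covered at 8.46% in the 4-hydroxytamoxifen list and 7.41% in the ethanol list, a difference of 1.05 points that turned to -0.171 at a −log10 q of 2 or more. Member bodies were covered at 4.32% and 2.18%, and the rest at 10.1% and 9.51%. In the main Psg stretch of 11 genes, from 18340744 to 18826591, bodies stood at 4.27% and 0.791%. Every peak of both Psg stretches had a −log10 q under 3.

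Psg18 had the largest difference of all members in the window of gene plus 5 kb. It was covered at 19.5% in the 4-hydroxytamoxifen list and 3.30% in the ethanol list, a difference of 16.2 points. The 4-hydroxytamoxifen list had 3 peaks in the window and the ethanol list 2, with no shared base, and none of them lay inside the gene. The 3 peaks of the 4-hydroxytamoxifen list lay at chr7:18340597-18342237 and chr7:18344563-18345464, past the end of the gene, and at chr7:18356718-18358090, before its start. The first and the last of these stopped just short of the 2 ethanol peaks, at chr7:18342435-18342746 and chr7:18358100-18358423.

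Psg21 was covered at 18.7% and 7.56%, a difference of 11.1 points. Here the main peak past the gene was found in both lists, at chr7:18643060-18645478 (2419 bp) in the 4-hydroxytamoxifen list and chr7:18643380-18644672 (1293 bp) in the ethanol list. A peak of 546 bp inside the gene was present in the 4-hydroxytamoxifen list alone. At a −log10 q of 2 or more Psg18 differed by 11.8 points and Psg21 by 12.1 points, since only peaks of the 4-hydroxytamoxifen list passed. These passed narrowly, at 2.05 for both Psg18 peaks kept and 2.12 for the Psg21 peak. The highest ethanol peaks in the 2 windows were at 1.96 and 1.81. Both calls ended with gene plus 20 kb, at 9.46 and 0.379 points, with the gene body alone, at 0 and 5.42 points, and at a −log10 q of 3 or more, at 0 points for both.

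The 250 bases before the starts of Psg18 (chr7:18354994-18355243) and Psg21 (chr7:18656726-18656975), on the minus strand, are shown because these are the 2 called members. Capitals mark the same motifs, and no peak of either list reached these bases.
Psg18: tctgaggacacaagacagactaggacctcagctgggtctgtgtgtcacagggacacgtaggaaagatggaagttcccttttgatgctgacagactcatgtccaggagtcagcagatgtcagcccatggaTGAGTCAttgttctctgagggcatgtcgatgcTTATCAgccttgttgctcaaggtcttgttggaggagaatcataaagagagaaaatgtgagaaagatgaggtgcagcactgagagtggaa
Psg21: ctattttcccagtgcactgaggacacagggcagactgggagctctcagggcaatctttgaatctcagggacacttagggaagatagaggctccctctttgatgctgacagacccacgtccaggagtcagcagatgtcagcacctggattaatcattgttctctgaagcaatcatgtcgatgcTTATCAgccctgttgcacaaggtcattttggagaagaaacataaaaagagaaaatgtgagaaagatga

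The motif TGATAA was found before 9 of 10 Psg starts and 4 of 22 Prl starts, against 7.28% of all 17492. The Psg copies are alike in these bases: 8 of 10 were over 80% identical to another member, and Psg21 and Psg23 were 96.1% identical. Of the Prl starts 8 of 22 were over 80% identical to another member. Matches in such copies are not independent of each other in either family. AGATAA was found before 1 of 10 Psg and 8 of 22 Prl starts (9.03% of all), TGANTCA before 3 and 7 (6.21%) and the TATA box TATAAA before 0 and 4 (12.3%). These matches describe the sequence and say nothing of binding.

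Psg25 had the highest coverage of all members in the 4-hydroxytamoxifen list, at 25.5%, against 15.6% in the ethanol list. Its difference of 9.91 points was just under the call threshold. The gene body differed more, at 23.5% and 2.11%. With peaks joined within 5 kb the Psg25 window differed by 60.4 points, and it held no peak of −log10 q 2 or more in either list. Psg27 (14.4% and 13.8%) and Psg23 (9.77% and 13.3%) were covered in both lists, and Psg20 stood at 9.49% and 10.4%. The remaining members with peaks, Psg16, Psg29, Psg28, Psg26 and Psg17, had coverage from 0.348% to 6.78% in the 4-hydroxytamoxifen list and from 1.3% to 6.30% in the ethanol list. Psg17 encodes a ligand of the tetraspanin CD9, and Psg16 is also transcribed in brain. Psg22, an abundant product of trophoblast giant cells, lay 16.0 kb and 17.9 kb from the nearest peak.

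Relative to the direction of transcription, the Prl genes with peaks mostly had them before the gene, and Psg genes had them on both sides and most often after the gene. This arrangement was noticed in the data, and it uses the 22 Prl and 10 Psg genes with an annotated start. In the 5 kb before the gene, 6 Prl genes had a peak in the 4-hydroxytamoxifen list and 7 in the ethanol list, against 11% and 10.7% of all protein-coding genes. These counts were 2 and 3 at a −log10 q of 2 or more. The 6 were Prl3d1, Prl3d2, Prl3d3, Prl8a6, Prl8a1 and Prl4a1, and the ethanol list had these and Prl7a2. In the 5 kb after the gene only 1 and 2 Prl genes had a peak, against 12.4% and 11.8%.

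In the 5 kb after the gene, 9 of 10 Psg genes had a peak in the 4-hydroxytamoxifen list and 9 of 10 in the ethanol list, with 8 in both. That flank was covered at a mean of 26.1% and 25.3%, against 3.38% and 3.28% for all protein-coding genes. Before the gene, 6 and 4 of 10 had a peak. The gene body held a peak in 6 and 2 of 10, against 21.2% and 20.2% of all protein-coding genes. The means of the flank after the gene were alike, but single genes differed in both directions, with Psg18 at 47.9% and 6.24% and Psg23 at 17.4% and 53.6%. With a −log10 q of 2 or more the flank after the gene held a peak in 3 Psg genes in each list.

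In steps of 2 kb from the start, Psg genes were covered most from 12 to 16 kb downstream. The 10 Psg genes with a start are 7655 to 12565 bp long. These steps therefore lie largely in the 5 kb after the gene, where the means over the whole flank were 26.1% and 25.3%. At 12 to 14 kb the Psg genes had 45.7% of bases under peaks in the 4-hydroxytamoxifen list and 28.4% in the ethanol list. At that distance 8 and 7 of the 10 genes had a peak. At 14 to 16 kb the means were 27.045% and 29.1%. All protein-coding genes stood at 3.42% and 3.12% at 12 to 14 kb. From 2 to 6 kb downstream no Prl gene had a peak in either list, and 2 Psg genes had 1 in the 4-hydroxytamoxifen list and none in the ethanol list. In the 2 kb just before the start the same 6 Prl genes had a peak in both lists, with means of 12.6% and 11.8%.

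**Figure D3:**
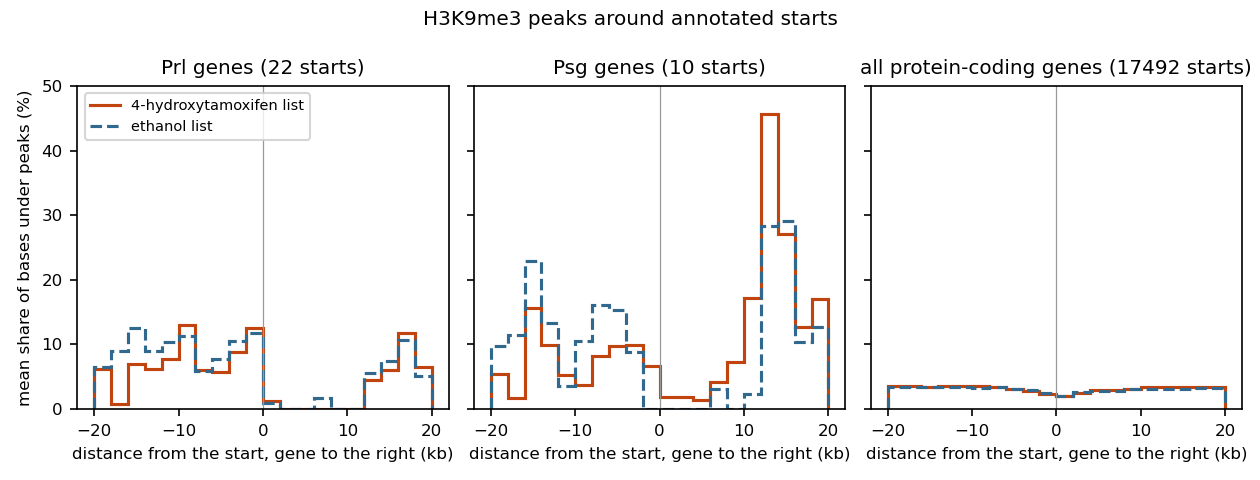
Mean percent of bases under peaks in 2 kb steps from 20 kb before to 20 kb after the annotated start, for Prl genes, Psg genes and all protein-coding genes, with a solid line for the 4-hydroxytamoxifen list and a dashed line for the ethanol list. Prl genes show coverage before the start and at most 1.25% and 1.65% in any step of the 12 kb after it, and Psg genes reach 45.7% and 28.4% at 12 to 14 kb.

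The share of peaks with no partner in the other list was lower for Prl than for Psg in the 4-hydroxytamoxifen list. Of 124 peaks of both clusters in the 4-hydroxytamoxifen list, 52 (41.9%, 95% Wilson interval 33.6 to 50.7%, counting error only) had no overlapping ethanol peak, against 49.9% of all peaks. Of 129 ethanol peaks, 52 (40.3%, 32.2 to 48.9%) had no partner, against 47% of all. In the Prl stretches the shares were 27.5% (18.4 to 39.0%) and 39.3% (29.8 to 49.7%). In the Psg stretches they were 60% (46.8 to 71.9%) and 42.5% (28.5 to 57.8%). Neighbouring peaks of 1 library are not replicates, so these intervals cannot compare the families. In the 4-hydroxytamoxifen list the median peak width was 1348 bp in the Prl stretches and 779 bp in the Psg stretches. The ethanol list held 89 Prl and 40 Psg peaks to overlap with. Whether width or number of peaks shaped the shares was not tested.

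The placental cathepsins had higher mean coverage than the Prl and Psg genes in both lists, and the Ceacam genes were close to the Psg genes in the ethanol list. The 11 placental cathepsin and Tpbp genes of chromosome 13, which encode proteases and small proteins of trophoblast, averaged 32.1% in the 4-hydroxytamoxifen list and 22.3% in the ethanol list. Each had a peak in at least 1 list, 8 were higher and 3 lower, and 5 were higher by 10 points or more, against 2.38% of all protein-coding genes and 37 of 829 on chromosome 13. The 15 Ceacam genes, relatives of Psg on the same chromosome, averaged 13.6% and 6.79%, with 10 higher, 0 lower and 5 equal, and 5 higher by at least 10 points, against 147 of 2030 genes on chromosome 7. Their medians were 7.27% and 3.13%, and not all of them are placental. Ceacam12 stood at 44.3% and 25.2% and Ceacam13 at 31.8% and 11.1%, both within 500 kb of the Psg stretches. Of the 52 protein-coding neighbours within that distance 42 had no peak in either list, against 64.6% of all protein-coding genes. All 52 averaged 4.34% and 2.53%, less than the Psg genes. The 500 kb before the main Psg stretch were covered at 25.4% and 18.9%, and the 500 kb after it at 0.552% and 0.599%. The main Psg stretch thus lay at the edge of a more heavily marked region. For the stretch of Psg16 and Psg29 the 500 kb before were covered at 0.385% and 0%, and the 500 kb after at 11.4% and 10.3%. With 1 library per group the differences between families were not tested.

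Genes that act with prolactin or control trophoblast had low mean coverage. The 19 genes of prolactin and growth hormone signalling averaged 0.720% in the 4-hydroxytamoxifen list and 1.03% in the ethanol list, with 4 higher, 6 lower and 9 equal, and none past 10 points. Peaks were present for 8 and 9 of them, against 30.1% and 29% of all protein-coding genes. Prlr, the prolactin receptor gene, stood at 0.237% and 0.326%, and Gh and Pou1f1, the pituitary factor gene, had no peak. Of 17 trophoblast regulators 13 had no peak in either list, against 64.6% of all protein-coding genes, a gap of very few genes. Among the 13 were Gcm1, Hand1, Ascl2 and Cdx2, and the highest value was Tfap2c at 1.66% and 1.93%. The 10 other protein-coding genes within 500 kb of the Prl stretches averaged 0.169% and 0.385%, less than the Prl genes.

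**Figure D4:**
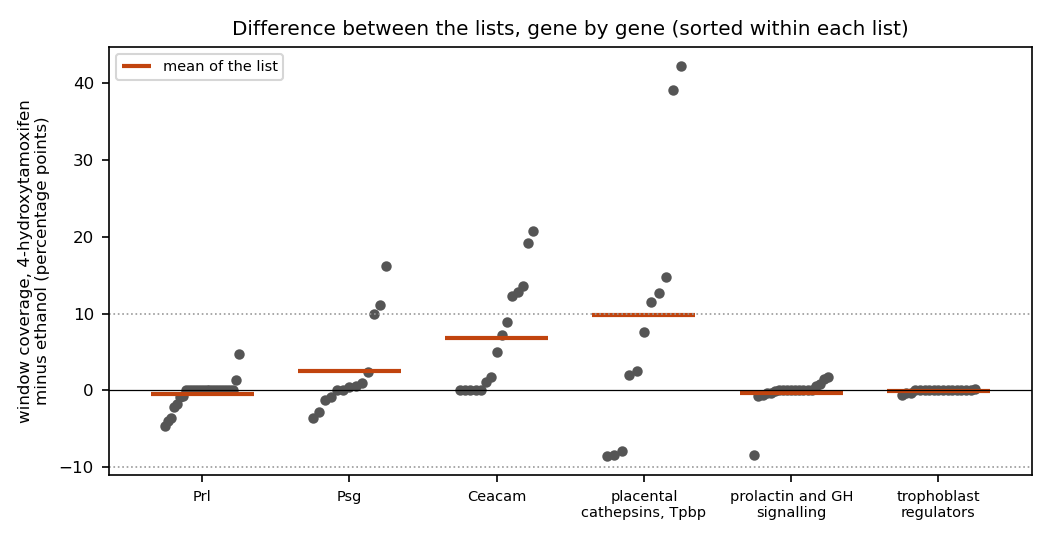
Difference in window coverage, 4-hydroxytamoxifen list minus ethanol list, in percentage points, 1 point per gene sorted within its list, with a bar for the mean and dotted lines at the call threshold of 10 points. Prl genes lie between -4.67 and 4.77 points, Psg genes reach 16.2, and Ceacam genes and placental cathepsins reach 20.7 and 42.2.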

How the data were processed

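The deposited files were 2 lists of broad H3K9me3 peaks. The deposited fold enrichment, a ratio on a linear scale, and the −log10 q-value of each peak are the authors'. Fold enrichment was not compared between the lists. The −log10 q-values were printed for peaks of both lists, and the same cut-offs of 2 and 3 were applied to both. A cut-off of 2 kept a larger share of the ethanol list than of the other list (18.8% and 11.5%). Differences between the lists at a cut-off were not corrected for this. The submitters' processing notes name mm10, BWA 0.7.17-r1188, MACS2 and ChIPseeker 1.30.3. Peak settings, use of input, pooling and read depth are not given in the sources used here. Peak names say replicate 2 and sample labels replicate 1, so lists were assigned by condition.

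Gene positions, starts and upstream sequences came from RefSeq tables of GRCm38.p6. Exons and introns were not used here. Prl2c2, Prl8a2, Prl7b1, Prl2c1, Psg16, Psg22 and Psg19 had no start entry. Covered bases were computed on chromosomes 1 to 19, X and Y in Python 3.11.15 (numpy 2.4.6, pandas 2.3.3, scipy 1.17.1; Biopython 1.88 for alignments; matplotlib 3.10.9 for figures), and the arithmetic was tested on simulated data. A stretch ran from the first to the last member plus 5 kb and was broken where neighbours lay over 1 Mb apart. That break was planned for Psg and extended to Prl after the positions were seen. A partner was a peak sharing at least 1 bp.

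Members and lists were chosen with earlier results of these data known. Named genes were the 5 largest rises and falls of at least 10 points in each family, the 3 highest in both lists, and 11 fixed genes; other genes and the printed upstream sequences, except that of Prl8a6, were chosen after their values were seen.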

Additional observations from a re-analysis of the deposited data

How the results depend on the processing

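No paired analysis was possible because there was a single library in each group, and no replicate could be left out. Alternatives without Psg18, without Prl4a1 (Prl mean -0.656 points), without the 3 proximal Prl2c genes, with Prl as 1 unbroken stretch, and all those for start regions and flanks were chosen after seeing the data. The cause of the changes was not tested, except that a stricter threshold keeps fewer peaks and joining lengthens them. Of 88 alternative values for 16 main results, 46 kept their size within 1.5 times or, for peak shares, within the main interval. None moved further when both lists had the same number of peaks.

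With peaks limited to −log10 q of 2 or more, the Prl and Psg means differed by -1.16 points for Prl genes and 1.36 for Psg genes, and the Psg stretches turned to -0.171. There 1 Prl and 1 Psg gene were lower by 10 points or more, 60% of ethanol peaks had no partner, and Prl genes with a peak before the gene numbered 2 and 3 and Psg genes with a peak after it 3 and 3. At 3 or more the Prl genes differed by -0.117 points, the Prl stretches by -0.165, and Psg genes and stretches by 0. No Psg gene was called (0), and counts of start regions and flanks under a peak were 0 in both lists.

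With peaks joined within 5 kb the differences were -2.02 points (Prl genes), -3.90 (Prl stretches), 10.1 (Psg genes) and 8.42 (Psg stretches). Calls were then 1 higher and 3 lower for Prl and 4 higher for Psg. Start regions under a peak numbered 4 in the 4-hydroxytamoxifen list and 1 in the ethanol list. The share of all protein-coding genes at this and the other alternative settings is not given. These counts therefore have no background and are not read as results about the members. With gene plus 20 kb the means were -1.30 and 0.868 points, with 0 Psg genes higher and 1 lower. Gene bodies alone gave 1 Psg gene higher, and -0.298 and 2.14 points for the Prl and Psg stretches. As 1 unbroken stretch Prl turned to 0.287 points. Without Psg18 the Psg mean was 1.42, with 1 call. Peaks without a partner were 54.0% and 61.2% when 50% of the peak had to overlap, and 10.5% and 15.5% when a peak within 5 kb counted.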
